A study of Homo sapiens with 9 samples.

Results

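The pre-mRNA splicing machinery was followed here through 48 of its own mRNAs, in nuclear and cytoplasmic RNA of cells with normal or reduced levels of the m6A methyltransferase subunits WTAP and KIAA1429 (VIRMA). The 48 genes are a named list of snRNP and spliceosome genes, out of 56349 genes with a matched transcript, and all 48 were among the 16181 genes abundant enough to be tested. They were arranged by the part of the machinery their proteins belong to. There were 7 genes of the Sm core, 8 of the U1 snRNP and its partners, 13 of the U2 snRNP and U2AF, 11 of the U4/U6.U5 tri-snRNP and the B complex, and 9 of the Prp19 complex (NTC), the helicases and the factors that load the exon junction complex. The cells were HEK293, a transformed line from human embryonic kidney that the methods of the study call 293T, and they were transfected either with control siRNA or with siRNAs against both WTAP and KIAA1429, here called RNAi. Each culture was separated into a cytoplasmic and a nuclear fraction. The 9 libraries analysed were 1 of control cytoplasm (replicate 2), 2 of RNAi cytoplasm (replicates 1 and 2), 3 of control nuclei and 3 of RNAi nuclei. The labels do not say whether replicates came from separate cultures, so the p-values measure the spread between these libraries, which may be technical.

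The spliceosome removes introns from pre-mRNA and is built from small nuclear RNAs, most of them wrapped in a ring of Sm proteins, together with many other proteins. The U1 snRNP recognises the start of an intron (the donor or 5′ splice site), U2AF and the U2 snRNP recognise its end and the branch point, and the tri-snRNP, the Prp19 complex and a series of RNA helicases then drive the assembly through its rearrangements and catalysis. WTAP and KIAA1429 are subunits of the nuclear complex that writes N6-methyladenosine (m6A) on mRNA, a mark with known links to splicing and to export from the nucleus. Introns that stay in a transcript often keep it in the nucleus, and transcripts with a premature stop codon that reach the cytoplasm are degraded by nonsense-mediated decay.

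Library totals ran from 11627403 to 19036141 estimated counts, of which 83.07% to 88.31% fell on transcripts matched to a gene, and 3 counts corresponded to 0.19 to 0.303 CPM (counts scaled to a common library size). WTAP read 24.1, 27.6 and 23.0 CPM in control nuclei and 12.2, 14.3 and 15.5 CPM in RNAi nuclei, and the RNAi libraries were lower in the nucleus for both targets (WTAP log2 change -0.83, VIRMA -1.08). The 8 nuclear long noncoding RNAs listed as fraction markers summed to 422 to 486 CPM in control nuclei, 548 to 610 CPM in RNAi nuclei, 110 CPM in control cytoplasm and 54.7 to 67.1 CPM in RNAi cytoplasm. The 13 mitochondrially encoded mRNAs, listed as markers of the cytoplasm, took 11.65% to 26.18% of matched counts. They summed to 154440 to 261840 CPM in control nuclei and 160160 to 247710 CPM in RNAi nuclei. In the cytoplasm the sums were 116490 CPM in the control and 120880 and 173790 CPM after RNAi. This marker list was therefore not higher in the cytoplasm, and the reason was not tested. Of the 5 HEK293 markers 4 were matched and all 4 passed the filter. Of the 5 markers of other cell types 4 were matched, COL1A1 passed the filter at 56.5 to 91.5 CPM, and PTPRC, ALB and HBG1 did not pass it.

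Per length, the spliceosome mRNAs covered a wide range of levels. The highest mean over the 9 libraries was that of SNRPA, which encodes the U1 snRNP protein A, at 841 TPM (salmon's length-normalised abundance), with a range of 577 to 984. It was followed by SNRPC, the U1 snRNP protein C, at 623 TPM, and by SF3B5, a small subunit of the SF3b complex of the U2 snRNP, at 399 TPM. The ranges of SNRPA and SNRPC over libraries overlapped, as SNRPC ran from 441 to 905 TPM. The lowest were CDC5L at 2.97 TPM, PRPF39 at 2.97 TPM, CWC27 at 1.41 TPM and CWC22 at 0.617 TPM, with overlapping ranges between neighbours. For genes with near-identical copies elsewhere in the genome, which include the short Sm genes with processed pseudogenes, and SNRPB with its paralogue SNRPN, the estimated counts depend on how reads were shared out and are uncertain to that extent.

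More of the spliceosome mRNAs were lower than higher in the nucleus, and 4 of the 7 that were higher belong to the U1 group. Relative to other RNAs of the fraction, 19 of the 48 were lower in the nucleus and 7 were higher, against a background over all tested genes of 23.4% lower and 33.1% higher (edgeR quasi-likelihood test, called at a Benjamini-Hochberg adjusted p under 0.1 and a log2 change beyond 0.5, averaging the control and RNAi groups). The median log2 nucleus-to-cytoplasm difference was -0.34 for the 48 genes and 0.03 for all genes. Because the fractions are compared as shares of their libraries, a lower share in one fraction and a higher share of other RNAs there cannot be told apart. Within the RNAi samples alone 10 were higher and 20 lower (background 32.9% and 24.9%), and within the controls 4 were higher and 21 lower (background 28.0% and 22.7%). Scaling by library size only, which moved the median of all genes from 0.03 to 0.16, left 12 of the spliceosome genes lower and 8 higher, beside 2827 lower and 5935 higher of all 16181.

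The Sm core, the 7 proteins that form the ring on most spliceosomal snRNAs, lay towards the cytoplasm. Of the 7 mRNAs 5 were lower in the nucleus, with all 7 estimates below 0 and a median of -0.76. SNRPD1, which encodes SmD1, had 58.0 CPM in control cytoplasm and 37.2 and 40.3 CPM in RNAi cytoplasm. Its nuclear libraries read 20.7, 27.3 and 22.9 CPM in controls and 20.2, 19.7 and 21.9 CPM after RNAi. Every nuclear library of SNRPD1 was below every cytoplasmic one, and the log2 difference was -1.10 ± 0.10 (SE, adjusted p = 8.75e-06). SNRPD3, which encodes SmD3, had 56.3 CPM in control cytoplasm, 54.9 and 62.1 CPM in RNAi cytoplasm, 22.8, 37.6 and 29.5 CPM in control nuclei and 28.4, 34.3 and 32.3 CPM in RNAi nuclei. The fractions of SNRPD3 did not overlap either, with a log2 difference of -0.90 ± 0.14 (SE, adjusted p = 0.000272).

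The U1 group was divided. LUC7L3, PRPF39, LUC7L and RBM25, which are relatives of yeast U1 proteins or bind the U1 snRNP and influence the choice of the 5′ splice site, were higher in the nucleus, and SNRPC was lower. The call of RBM25 came from the RNAi samples (log2 difference 1.97, adjusted p = 9.45e-06), since within the controls its difference was -0.03 (adjusted p = 0.902) and its fractions overlapped. LUC7L3 (chr17:48796926-48833580, plus strand, GRCh37) had the highest estimate of the 48. It read 9.19 CPM in control cytoplasm, 1.79 and 3.28 CPM in RNAi cytoplasm, 52.4, 50.4 and 55.5 CPM in control nuclei and 61.7, 64.8 and 57.5 CPM in RNAi nuclei. The nuclear and cytoplasmic libraries were far apart, by a log2 difference of 3.58 ± 0.16 (SE, adjusted p = 2.07e-07), which is 12.0-fold. PRPF39 (chr14:45553310-45585485, plus strand), next in order, read 2.25 CPM in control cytoplasm, 1.01 and 0.984 CPM in RNAi cytoplasm, 6.52, 7.36 and 6.02 CPM in control nuclei and 8.07, 7.41 and 7.19 CPM in RNAi nuclei. Its fractions did not overlap and differed by 2.23 ± 0.18 on the log2 scale (SE, adjusted p = 3e-06). SNRPC ran the other way, at 450 CPM in control cytoplasm, 380.4 and 400.0 CPM in RNAi cytoplasm and 215 to 309 CPM in the 6 nuclear libraries (log2 difference -0.76 ± 0.11, SE, adjusted p = 0.000142).

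In the U2 group 7 of 13 mRNAs were lower in the nucleus and SNRPA1, which encodes a leucine-rich repeat protein of the U2 snRNP, was higher (log2 difference 0.64 ± 0.12, SE, adjusted p = 0.00111). Within the RNAi samples the difference of SNRPA1 was 1.01 (adjusted p = 0.000376), and within the controls it was 0.26 and did not pass (adjusted p = 0.275). SF3A2, a subunit of the SF3a complex that joins the U2 snRNP to the branch site, had the lowest averaged estimate of the 48, close to that of SNRPD1. Within the controls its difference was -0.82, beside -1.29 for SNRPD1, -1.20 for CWC27 and -1.18 for SNRNP27. SF3A2 read 344 CPM in control cytoplasm, 549 and 650 CPM in RNAi cytoplasm, 172, 209 and 202 CPM in control nuclei and 219.5, 219.8 and 227 CPM in RNAi nuclei. All nuclear libraries of SF3A2 lay below all cytoplasmic ones, and the log2 difference was -1.13 ± 0.09 (SE, adjusted p = 2.64e-06). In the tri-snRNP and B complex group PRPF3, a U4/U6 protein, and PRPF38B were higher in the nucleus, the latter through the RNAi samples (log2 difference 1.15, beside -0.08 within the controls, adjusted p = 0.735), and SNRNP27, PRPF38A and PRPF4 were lower. PLRG1, PRPF19 and DHX15 were the 3 lower genes of the 9 in the last group, the first 2 being partners in the Prp19 complex and DHX15 the helicase of spliceosome disassembly. PLRG1 changed sign with an offset for average transcript length, from -0.62 to 0.63 on the log2 scale. The calls that ended when a library was left out were PRPF38B (without control nuclear replicate 1, where its log2 difference was under 0.5), PRPF19 (without replicate 1 of either nuclear group), U2AF2 (without control nuclear replicate 1 or RNAi cytoplasmic replicate 2), and DHX15 and SNRPB2, which ended without any of 5 libraries each.

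**Figure D1:**
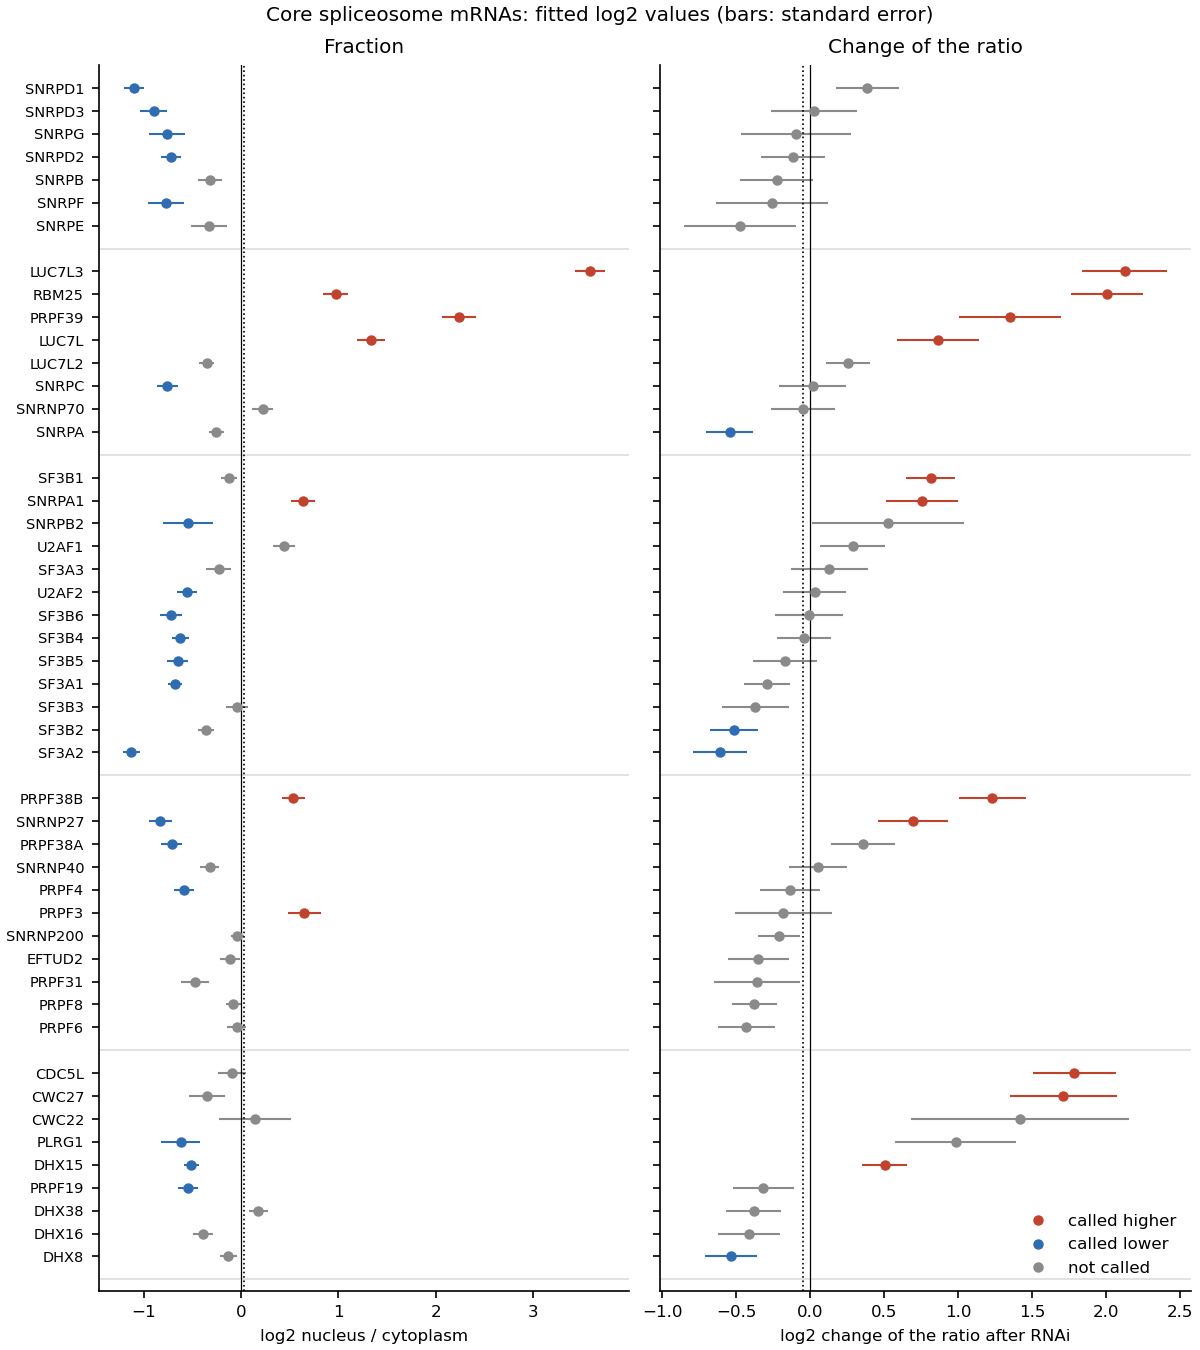
Fitted log2 difference between nucleus and cytoplasm (left, averaged over control and RNAi) and log2 change of the nuclear/cytoplasmic ratio after RNAi (right) for the 48 genes, in blocks by role from the Sm core at the top through U1, U2 and tri-snRNP to the Prp19 complex and helicases, with bars for the standard error, a dotted line at the median of all tested genes and colour for the call. In the left plot 19 genes are called lower and 7 higher, with LUC7L3 at 3.58, and in the right plot 11 are called higher and 4 lower, none of them in the Sm core.

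The study asked whether the loss of WTAP and KIAA1429 changes how RNA is shared between nucleus and cytoplasm, and 15 of the 48 spliceosome mRNAs changed their nuclear/cytoplasmic ratio. The ratio rose for 11 (LUC7L3, RBM25, PRPF39, LUC7L, SNRPA1, SF3B1, PRPF38B, SNRNP27, CDC5L, CWC27 and DHX15), against 10.4% of all genes, and fell for 4 (SNRPA, SF3A2, SF3B2 and DHX8), against 7.87% of all genes. The log2 changes ran from 0.50 to 2.12 among the former and from -0.61 to -0.52 among the latter, and the median over the 48 was -0.03 beside -0.05 for all genes. The contrast rests on 1 control cytoplasmic library, so a change of the control cytoplasm and a peculiarity of that library cannot be told apart. The summed nuclear long noncoding RNAs moved with the contrast, being 110 CPM in that library and 54.7 to 67.1 CPM in the RNAi cytoplasm. Their part in the result was not tested. Leaving out RNAi nuclear replicate 2 or RNAi nuclear replicate 3 left 7 genes raised. The 4 lowered genes became 0 without control nuclear replicate 3, RNAi cytoplasmic replicate 2 or RNAi nuclear replicate 3, 1 without RNAi nuclear replicate 1, and 2 without control nuclear replicate 2 or RNAi cytoplasmic replicate 1.

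The 2 largest changes were those of U1-associated genes. The ratio of LUC7L3, whose libraries are given above, rose by 2.12 ± 0.28 on the log2 scale (SE, adjusted p = 0.00281), with RNAi-to-control differences of 0.22 in the nucleus and -1.91 in the cytoplasm. RBM25 (chr14:73525240-73590607, plus strand) encodes an RNA-binding protein that recruits the U1 snRNP to regulated 5′ splice sites. It read 30.8 CPM in control cytoplasm and 7.79 and 11.9 CPM in RNAi cytoplasm, and 29.7, 30.5 and 30.3 CPM in control nuclei and 35.4, 39.8 and 39.6 CPM in RNAi nuclei. Both RNAi cytoplasmic libraries were far below the control one, and the RNAi nuclear libraries were all above the control nuclear ones. The ratio of RBM25 rose by 2.00 ± 0.25 on the log2 scale (SE, adjusted p = 0.00192), with differences of 0.34 in the nucleus and -1.66 in the cytoplasm. PRPF39 rose by 1.35 ± 0.35 (SE, adjusted p = 0.0339) and LUC7L by 0.86 ± 0.28 (SE, adjusted p = 0.07). SNRPA, which had the highest mean TPM over the 9 libraries, had a log2 change of the ratio of -0.54 (adjusted p = 0.0513), with 643 CPM in control cytoplasm, 951 and 978 CPM in RNAi cytoplasm and 591 to 698 CPM in the 6 nuclear libraries. SNRPC changed least in this group, at 0.02 ± 0.22 (SE, adjusted p = 0.979). The call for LUC7L ended without control nuclear replicate 3, RNAi cytoplasmic replicate 1 or any RNAi nuclear replicate (adjusted p 0.113 to 0.181), and that for SNRPA ended without control nuclear replicate 2 or 3, RNAi cytoplasmic replicate 2 or RNAi nuclear replicate 3, where the log2 change was -0.56 to -0.48.

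In the U2 group the largest changes were those of SF3B1 and SNRPA1. SF3B1 (chr2:198253239-198299803, minus strand) encodes the scaffold of the SF3b complex that holds the branch point. It read 91.5 CPM in control cytoplasm, 47.98 and 50.5 CPM in RNAi cytoplasm, 59.4, 65.9 and 65.2 CPM in control nuclei and 55.8, 59.6 and 64.5 CPM in RNAi nuclei. The nuclear groups of SF3B1 overlapped and the control cytoplasm stood above both RNAi cytoplasmic libraries, giving a ratio raised by 0.81 ± 0.16 on the log2 scale (SE, adjusted p = 0.0139). SNRPA1 read 12.0 CPM in control cytoplasm, 7.71 and 7.43 CPM in RNAi cytoplasm, 12.8, 16.6 and 13.5 CPM in control nuclei and 15.2, 14.6 and 16.1 CPM in RNAi nuclei. Its ratio rose by 0.75 ± 0.24 (SE, adjusted p = 0.0708). The ratio of SF3A2 had a log2 change of -0.61 (adjusted p = 0.0563) and that of SF3B2 one of -0.52 (adjusted p = 0.0645). SF3B6, the SF3b subunit that contacts the branch adenosine, was the least changed at -0.01 ± 0.23 (SE, adjusted p = 0.988). The calls for SNRPA1 (adjusted p 0.101 to 0.151), SF3A2 (0.102 to 0.191) and SF3B2 ended on leaving out RNAi nuclear replicate 1, RNAi nuclear replicate 3, RNAi cytoplasmic replicate 2 or control nuclear replicate 3, those for SNRPA1 and SF3A2 also without RNAi nuclear replicate 2, those for SNRPA1 and SF3B2 also without RNAi cytoplasmic replicate 1, and that for SF3B2 also without control nuclear replicate 1 or 2.

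Among tri-snRNP and B complex genes, PRPF38B and SNRNP27 had a raised ratio and none of the 11 had a lowered one (1 at an unadjusted p under 0.05, 0 by DESeq2). PRPF38B read 28.9 CPM in control cytoplasm, 14.8 CPM in both RNAi cytoplasmic libraries, 31.3, 22.8 and 28.0 CPM in control nuclei and 35.0, 31.4 and 32.0 CPM in RNAi nuclei. The RNAi libraries were the higher ones in the nucleus and the lower ones in the cytoplasm, and the ratio rose by 1.23 ± 0.23 on the log2 scale (SE, adjusted p = 0.00992). SNRNP27, a protein specific to the tri-snRNP, read 19.5 CPM in control cytoplasm, 10.4 and 8.96 CPM in RNAi cytoplasm, 8.04, 8.31 and 9.56 CPM in control nuclei and 6.88, 7.14 and 6.90 CPM in RNAi nuclei. It was lower after RNAi in the cytoplasm (log2 difference -0.999, adjusted p = 0.00608), its nuclear difference of -0.31 did not pass (adjusted p = 0.244), and its ratio rose by 0.69 ± 0.24 (SE, adjusted p = 0.0858). That call ended without RNAi cytoplasmic replicate 2 or any RNAi nuclear replicate (adjusted p 0.136 to 0.175). The least changed was SNRNP40, the WD-repeat protein of the U5 snRNP, at 0.05 ± 0.20 (SE, adjusted p = 0.897), with 105 CPM in control cytoplasm, 89.4 and 103 CPM in RNAi cytoplasm, 73.0, 93.0 and 81.9 CPM in control nuclei and 73.3, 81.0 and 81.1 CPM in RNAi nuclei.

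In the Prp19 complex and helicase group CDC5L, CWC27 and DHX15 had a raised ratio and DHX8 a lowered one. CDC5L (chr6:44355443-44418162, plus strand) is a core protein of the Prp19 complex. It read 34.6 CPM in control cytoplasm, 13.2 and 11.9 CPM in RNAi cytoplasm, 19.1, 14.5 and 18.8 CPM in control nuclei and 24.5, 17.2 and 23.5 CPM in RNAi nuclei. The nuclear groups overlapped and the cytoplasmic difference was -1.46, so that the ratio rose by 1.78 ± 0.28 on the log2 scale (SE, adjusted p = 0.00565). CWC27, a cyclophilin-type protein of the active spliceosome, read 4.68 CPM in control cytoplasm, 2.03 and 1.86 CPM in RNAi cytoplasm, 2.06, 1.84 and 2.21 CPM in control nuclei and 2.50, 2.69 and 3.12 CPM in RNAi nuclei. Its ratio rose by 1.71 ± 0.36 (SE, adjusted p = 0.016). PRPF19, the ubiquitin ligase that gives the complex its name, was the least changed of the group at -0.32 ± 0.21 (SE, adjusted p = 0.349), with 273 CPM in control cytoplasm, 269 and 289 CPM in RNAi cytoplasm, 181, 241 and 205 CPM in control nuclei and 156, 181 and 178 CPM in RNAi nuclei. CWC22, which loads the exon junction complex, had an estimate of 1.42 ± 0.74 that did not pass (SE, adjusted p = 0.24), at 0.857 to 2.50 CPM. The DHX15 call (0.50 ± 0.15) ended without control nuclear replicate 3, RNAi cytoplasmic replicate 1 or RNAi nuclear replicate 2 or 3 (adjusted p 0.108 to 0.13), and the DHX8 call without control nuclear replicate 3, either RNAi cytoplasmic replicate or RNAi nuclear replicate 1 or 3 (adjusted p 0.129 to 0.182).

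None of the 7 Sm core mRNAs passed the edgeR test for a change of the ratio, with 0 at an unadjusted p under 0.05 and 0 by DESeq2. SNRPE, which encodes SmE, and SNRPD1 had the largest estimates, at -0.48 ± 0.38 (SE, adjusted p = 0.447) and 0.39 ± 0.21 (SE, adjusted p = 0.267). SNRPD3 had the smallest, at 0.03 ± 0.29 (SE, adjusted p = 0.971). A p that misses the threshold does not show that these ratios stayed the same, as their SEs reach 0.38 on the log2 scale for SNRPE.

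**Figure D2:**
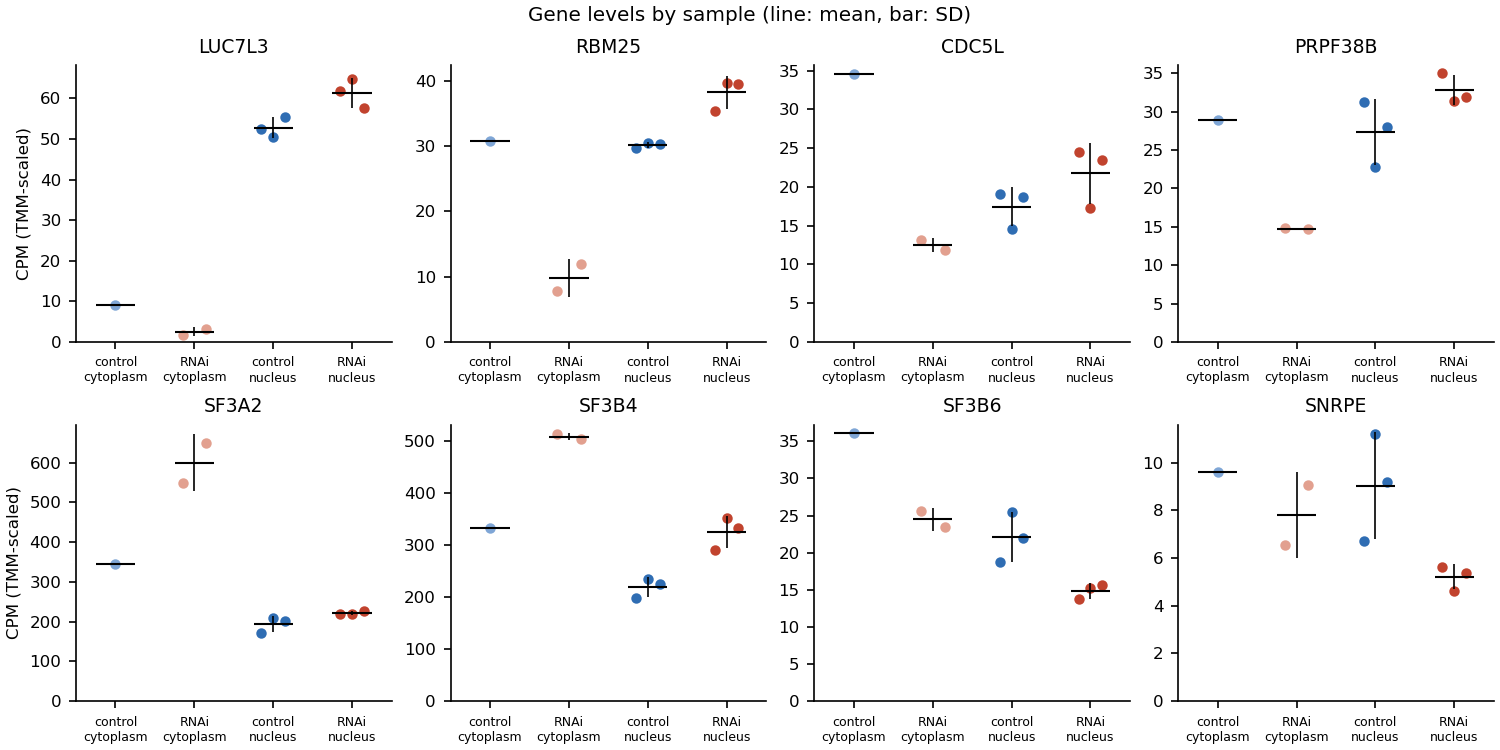
CPM scaled by TMM in each of the 9 libraries for 8 spliceosome genes, with a line at the mean and a bar for the SD of each group where it has more than 1 library. In the upper row the RNAi cytoplasmic libraries of LUC7L3, RBM25, CDC5L and PRPF38B lie below the single control cytoplasmic one, while in the lower row SF3B4 is higher in RNAi nuclei (291 to 352 CPM) than in control nuclei (197 to 235 CPM) and SF3B6 and SNRPE are lower.

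Within the cytoplasm alone, where 2 RNAi libraries were set against 1 control, 16 of the 48 mRNAs were lower after RNAi and 5 were higher, against 14.2% and 10.4% of all genes. This comparison and the change of the ratio share all 3 cytoplasmic libraries, so the one adds no separate evidence to the other. The 5 higher genes were SF3A2 (log2 difference 0.80), PRPF31 (0.66), SF3B4 (0.61), SNRPA (0.59) and DHX8 (0.54). The PRPF31 call ended on leaving out either RNAi cytoplasmic library, control nuclear replicate 1 or 3, or RNAi nuclear replicate 2 or 3, and that of DHX8 without control nuclear replicate 1 or 3, so that the count of 5 fell to 3 without either of those control nuclear libraries. The largest differences downwards were those of LUC7L3 (-1.91), RBM25 (-1.66) and CDC5L (-1.46).

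GC content moved with the change of the ratio. The most abundant transcript had a median GC content of 41.1% (range 37.6% to 54.3%) in the 11 genes with a raised ratio, 57.7% (49.4% to 66.5%) in the 4 with a lowered ratio and 52.1% (37.1% to 60.5%) in the other 33. Over all tested genes the medians were similar, at 41.7% for a raised ratio, 59.2% for a lowered one and 51.2% for the rest. Across the 48 genes Spearman's rho between GC content and the log2 change of the ratio was -0.64, a description only, since all 48 points share the same 9 libraries, and across all 16181 genes it was -0.49. Neither transcript length (rho = -0.01) nor the density of the letters GGACT, searched on the sense strand as 1 form of the m6A consensus (rho = -0.16), ordered the 48 genes in the same way. At least 1 GGACT was present in the most abundant transcript of 83.3% of the 48 genes and 78.7% of all genes. Among the 48 the share was 90.9% for a raised ratio, 81.8% for the other 33 and lowest for the 4 with a lowered ratio. Over all tested genes the order was the reverse, at 75.95% for a raised ratio, 87.0% for a lowered one and 78.2% for the rest. Among the 48 the median density per kilobase was 0.73 for a raised ratio, 0.92 for a lowered one and 1.21 for the other 33. With a trend on GC content removed from each library, 5 spliceosome genes kept a raised ratio and 0 a lowered one (all genes: 682 raised and 499 lowered). The 5 were LUC7L3 (log2 change 1.55 ± 0.31, SE, adjusted p = 0.0283), RBM25 (1.15 ± 0.28, adjusted p = 0.0594), PRPF38B (1.11 ± 0.21, adjusted p = 0.026), LUC7L (1.03 ± 0.28, adjusted p = 0.0755) and CDC5L (0.91 ± 0.24, adjusted p = 0.0737). In the cytoplasm the same correction left 5 genes lower (LUC7L3, PRPF38B, LUC7L, RBM25 and SNRPD1) and 1 higher (DHX8). The calls of LUC7L3, RBM25, PRPF38B and CDC5L for the ratio held under all 15 alternatives computed.

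**Figure D3:**
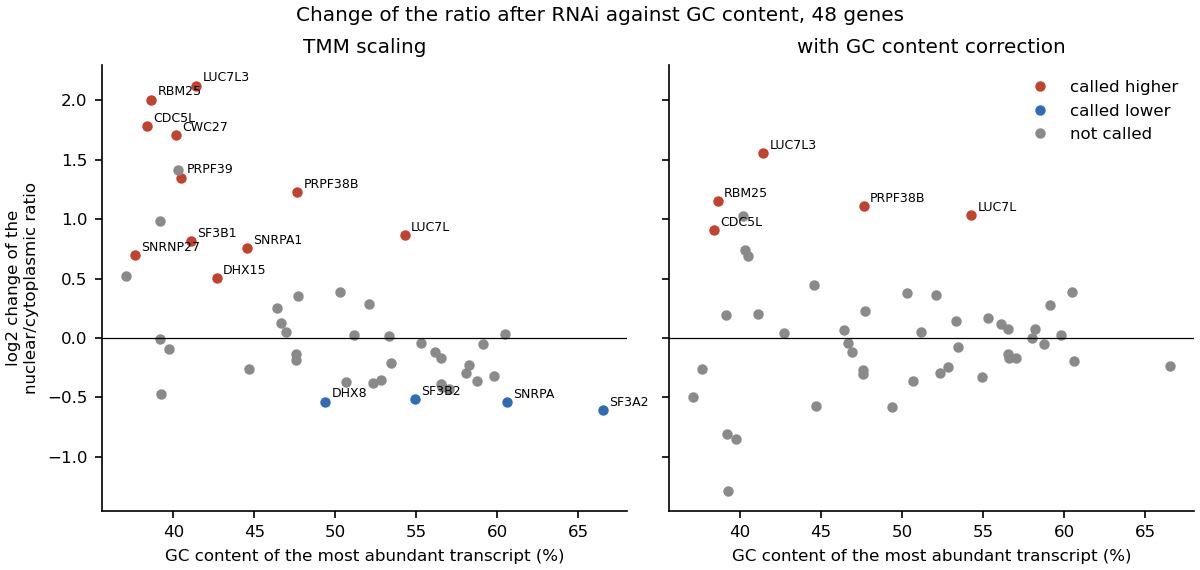
Log2 change of the nuclear/cytoplasmic ratio after RNAi against the GC content (%) of the most abundant transcript for the 48 genes, with the TMM-scaled fit on the left and the fit with a GC trend removed from each library on the right. On the left the values reach 2.12 and the 11 genes called higher lie mostly at low GC content (median 41.1%), beside 4 called lower (median 57.7%), and on the right 5 are called higher and 0 lower.

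In the nucleus, where 3 RNAi libraries were compared with 3 controls, 1 of the 48 spliceosome mRNAs was higher and 2 were lower after RNAi, against 2.47% and 2.42% of all genes, and the 48 log2 differences ran from -0.79 to 0.57. SF3B4 (chr1:149895209-149899695, minus strand), the SF3b subunit that tethers the complex to pre-mRNA next to the branch point, read 197, 235 and 226 CPM in control nuclei and 291, 352 and 332 CPM in RNAi nuclei. Its groups did not overlap, and it rose by 0.57 ± 0.10 on the log2 scale (SE, adjusted p = 0.0259), which is 1.48-fold. In the cytoplasm it read 333 CPM in the control and 513 and 503 CPM after RNAi. SF3B6 (chr2:24290456-24299243, minus strand) read 18.7, 25.5 and 21.9 CPM in control nuclei and 13.7, 15.2 and 15.7 CPM in RNAi nuclei, with 36.1 CPM in control cytoplasm and 25.5 and 23.4 CPM in RNAi cytoplasm. It fell by 0.57 on the log2 scale (SE 0.13, adjusted p = 0.049). SNRPE (chr1:203830727-203840280, plus strand) read 6.73, 11.2 and 9.20 CPM in control nuclei and 5.63, 4.63 and 5.38 CPM in RNAi nuclei, with 9.61 CPM in control cytoplasm and 6.54 and 9.07 CPM in RNAi cytoplasm. It fell by 0.79 on the log2 scale (SE 0.21, adjusted p = 0.0713). The SF3B4 call ended without control nuclear replicate 1, where the log2 change was 0.49, and on dropping RNAi nuclear replicate 2 or 3 or the third control nuclear library (adjusted p 0.113 to 0.137). The calls of SF3B6 and SNRPE ended on leaving out any RNAi nuclear library or control nuclear replicate 2 or 3 (adjusted p up to 0.16 and 0.214), and without control nuclear replicate 1 the number of lower genes was 4.

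Single isoforms were examined next, since the annotation lists many transcripts of the spliceosome genes that keep an intron. Of 190 spliceosome isoforms tested, 73 were higher in the nucleus and 23 were lower, against 34.9% and 12.6% of all isoforms (limma on log2(TPM + 1), same thresholds). The transcripts annotated as retained-intron made up 56 of them, of which 36 were higher in the nucleus and 2 were lower, against 69.2% and 4.54% of all retained-intron isoforms. For those subject to nonsense-mediated decay the numbers were 7 higher and 1 lower of 14 (background 28.5% and 14.7%), for those without a defined coding sequence 15 higher and 3 lower of 27 (background 42.7% and 10.3%), and for protein-coding isoforms 15 higher and 17 lower of 93 (background 19.2% and 17.6%). Summed per gene, the ratio of retained-intron transcripts to the other transcripts could be tested for 28 genes and was higher in the nucleus for 18 and lower for 1, beside 50.2% and 6.54% of all genes.

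Retained-intron transcripts were a large part of the nuclear RNA of several genes and a small part of their cytoplasmic RNA. For PLRG1 they held 54.9%, 45.5% and 58.5% of the TPM in control nuclei and 48.4%, 56.3% and 53.9% in RNAi nuclei, and were listed at 0 in all 3 cytoplasmic libraries. For PRPF39 they held 53% to 80.4% in the 6 nuclear libraries, 4.57% in control cytoplasm and 0 in both RNAi cytoplasmic libraries, at a gene level of 0.252 to 1.5 TPM in the cytoplasm. For LUC7L the nuclear share was 50.5% to 63.1%, beside 1.76% in control cytoplasm and 16% and 18.5% in RNAi cytoplasm. The nuclear and cytoplasmic libraries of these 3 genes did not overlap. For SNRPA1 the share was 23.9% to 37.7% in nuclei and at most 0.744% in cytoplasm (log2 ratio difference 3.76 ± 0.28, SE, adjusted p = 6.54e-06). For LUC7L2, a U1-associated paralogue of LUC7L, it was 16.1% to 22.8% in control nuclei, 26.8% to 38.7% in RNAi nuclei, 4.25% in control cytoplasm and at most 0.129% in RNAi cytoplasm (3.77 ± 0.27, adjusted p = 5.74e-06). LUC7L3 was the 1 gene called in the opposite direction, among 5 with an estimate below 0, at 54% in control cytoplasm and 20.2% and 21.7% in RNAi cytoplasm and 0 in 5 of the 6 nuclear libraries. There the cytoplasmic level of the whole gene was 8.35, 1.04 and 1.34 TPM, beside 27.4 to 53.0 TPM in nuclei. In some other genes the share was large in both fractions. For SF3B3 it was 71.0% to 77.7% in nuclei and 72.8% to 78.8% in cytoplasm. For SNRNP200 it was 59.2% to 70.7% and 48.4% to 56.4%, and for SNRNP70 41.4% to 65.0% and 41.9% to 47.0%.

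**Figure D4:**
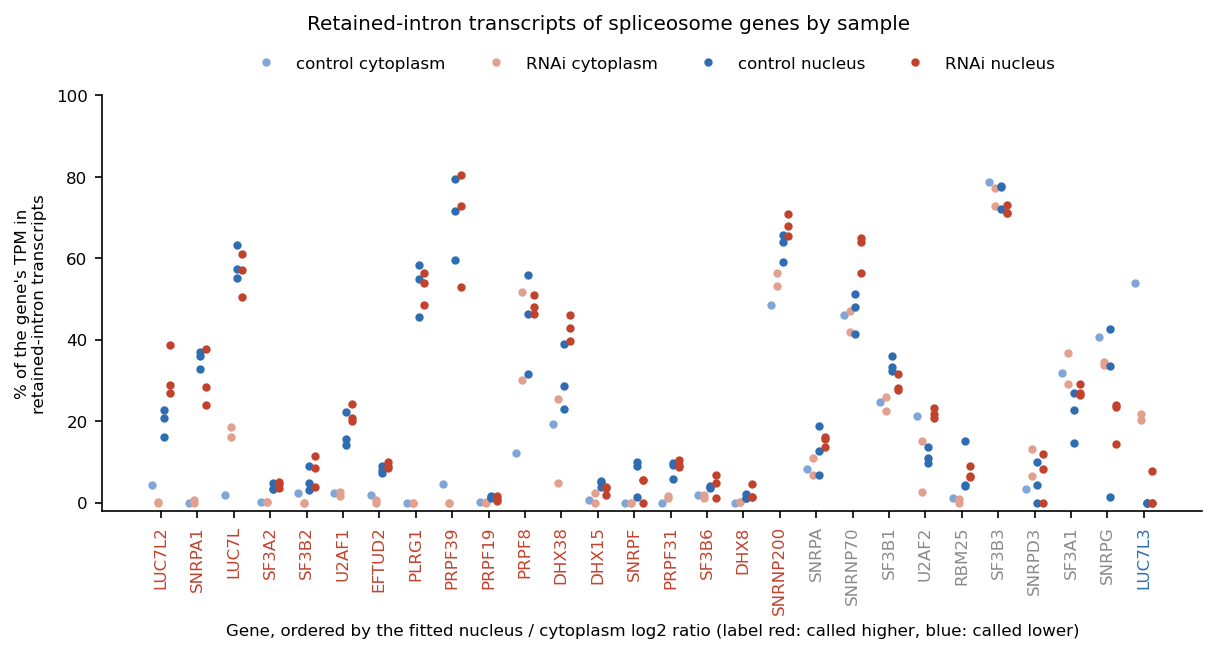
Share (%) of each gene's TPM held by its retained-intron transcripts in each of the 9 libraries, for the 28 spliceosome genes with such transcripts, ordered by the fitted log2 ratio between nucleus and cytoplasm, with gene names in red where called higher in the nucleus and blue where called lower. The nuclear points of PLRG1, PRPF39, LUC7L and SNRPA1 stand between 23.9% and 80.4%, those of the cytoplasm between 0% and 18.5%, and LUC7L3 shows the reverse.

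The 8 isoforms with the smallest adjusted p were all nuclear, and 7 of them contain bases of an intron of the reference isoform of their gene. LUC7L3-202, a protein-coding isoform of 2284 nucleotides and the most abundant coding one of its gene, was the exception. It read 0.698 TPM in control cytoplasm, 0.265 and 0.322 TPM in RNAi cytoplasm, 15.0, 16.0 and 16.4 TPM in control nuclei and 17.1, 21.9 and 16.1 TPM in RNAi nuclei. SNRNP40-202, EFTUD2-218, LUC7L-216, LUC7L2-203 and U2AF1-211 were at no more than 3.02 TPM in the cytoplasm and at 3.32 to 22.0 TPM in every nuclear library. SNRNP70-208 and SNRNP70-202 read 0.275 to 1.6 TPM in the cytoplasm and 5.89 to 43.5 TPM in the nucleus. The main coding isoforms of these genes did not show this pattern. SNRNP40-201 read 52.8 to 69.8 TPM in the cytoplasm and 36.1 to 53.5 TPM in the nucleus, EFTUD2-201 read 65.7 to 78.9 and 51.3 to 64.8 TPM, LUC7L2-202 28.3 to 55.7 and 27.2 to 42.0 TPM, U2AF1-201 37.4 to 58.5 and 27.5 to 65.1 TPM, and LUC7L-201 4.56 to 10.6 and 0.127 to 4.50 TPM. SNRNP70-206 read 54.7 to 57.4 and 43.4 to 72.7 TPM.

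The splice sites of introns whose bases these nuclear isoforms carry are given here because isoforms among the 8 with the smallest adjusted p carry bases that lie between them. They were read from the GRCh37 genome on the strand of the gene, 5′ to 3′, with the last 3 exon bases and first 6 intron bases at the donor and the last 20 intron bases and first 3 exon bases at the acceptor. Capitals mark the intron. They are intron 7 of 9 of SNRNP70-206 (chr19:49604729-49607890, plus strand, 3162 nucleotides), intron 1 of LUC7L2-202 (chr7:139045069-139060807, plus strand), intron 6 of SNRNP40-201 (chr1:31742088-31744225, minus strand), intron 3 of U2AF1-201 (chr21:44515854-44520562, minus strand) and intron 23 of EFTUD2-202 (chr17:42931004-42931636, minus strand). EFTUD2-218 keeps all 633 bases of its intron and the others keep a part, namely 197 bases in SNRNP70-208, 155 in LUC7L2-203, 426 in SNRNP40-202 and 2831 in U2AF1-211. EFTUD2-218 and U2AF1-211 also carry part of a second intron, and LUC7L-216 carries part of introns 1 and 3 of LUC7L-201.
SNRNP70 intron 7 donor: actGTGAGT
SNRNP70 intron 7 acceptor: CCTCCCCACATCTGTTACAGccg
LUC7L2 intron 1 donor: acgGTAAGT
LUC7L2 intron 1 acceptor: TTAACTCTTCTATATTACAGgag
SNRNP40 intron 6 donor: cagGTAACT
SNRNP40 intron 6 acceptor: TATTTGGATTTGTTTTGCAGttc
U2AF1 intron 3 donor: gctGTAAGT
U2AF1 intron 3 acceptor: AAGATTTCTGTTGTTTGCAGgtg
EFTUD2 intron 23 donor: aatGTAAGT
EFTUD2 intron 23 acceptor: TCCCTCCACCTCCTTTACAGtga

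After RNAi, the nuclear retained-intron ratio was called changed for 0 of the 28 genes, as for 0 of 7184 genes overall (background 0.0% in both directions, limma on the log2 ratio of summed TPM with 0.5 added to each sum). At an unadjusted p under 0.05 it was higher for 2 of the 28 (SNRNP70 and LUC7L2, named after their values were seen) and lower for 0, and over all genes higher for 423 and lower for 261. A ratio that was not called is not shown to be unchanged. By another measure, reads counted over introns, the study reported raised intron retention after RNAi in part of its gene products. In the cytoplasm the ratio was higher after RNAi for 1 of the 28, LUC7L, whose shares are given above (log2 difference 2.34 ± 0.44, SE, adjusted p = 0.0978, background 0.209%). The change of the retained-intron ratio between fractions passed for 0 of the 28, beside 0.0278% of all genes higher and 0.0% lower, with 4 higher and 3 lower at an unadjusted p under 0.05 (353 and 433 of all 7184 genes). At the level of single isoforms 1 of 190 changed, beside 0.181% of all isoforms higher and 0.0675% lower, and at an unadjusted p under 0.05 there were 16 higher and 3 lower, beside 3148 higher and 1651 lower of all 41485 isoforms.

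That isoform was SNRNP70-208, a retained-intron transcript of the gene for U1-70K, the protein through which the U1 snRNP contacts many splicing regulators (SNRNP70, chr19:49588676-49611862, plus strand). It read 17.6, 14.9 and 17.3 TPM in control nuclei and 36.3, 38.9 and 43.5 TPM in RNAi nuclei, with 1.6 TPM in control cytoplasm and 0.64 and 0.854 TPM in RNAi cytoplasm. The nuclear groups were well separated, with a log2 difference of 1.20 ± 0.16 (SE, adjusted p = 0.0519). This call held without the control cytoplasmic library (adjusted p = 0.052) and ended on leaving out any one of the other 8, with an adjusted p of 0.102 to 0.235 and a log2 difference of 1.133 to 1.263. SNRNP70-202, a transcript of the same gene annotated for nonsense-mediated decay that also holds bases of intron 7, read 5.89, 7.44 and 6.99 TPM in control nuclei and 11.2, 12.1 and 11.7 TPM in RNAi nuclei (log2 difference 0.71 ± 0.17, SE, adjusted p = 0.22). Its groups did not overlap, but the difference did not pass. The main coding isoform SNRNP70-206 read 46.7, 72.7 and 57.6 TPM in control nuclei and 43.4, 61.9 and 45.7 TPM in RNAi nuclei, which overlap (log2 difference -0.22 ± 0.21, SE, adjusted p = 0.73).

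Of the 10 isoforms of SNRNP70, 5 carry bases of intron 7. Their summed share of the gene's TPM was 18.5%, 14.4% and 18.1% in control nuclei and 28.4%, 26.1% and 28.9% in RNAi nuclei, or 17.0% ± 2.23 (SD, n = 3) and 27.8% ± 1.47 (SD, n = 3). In the cytoplasm it was 3.24% in the control and 1.56% and 2.90% after RNAi. This set was chosen after the isoform values were seen, so no test is given. The gene as a whole read 147, 179 and 163 CPM in control nuclei and 180, 189 and 178 CPM in RNAi nuclei, a log2 difference of 0.16 ± 0.12 (SE, adjusted p = 0.465).

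**Figure D5:**
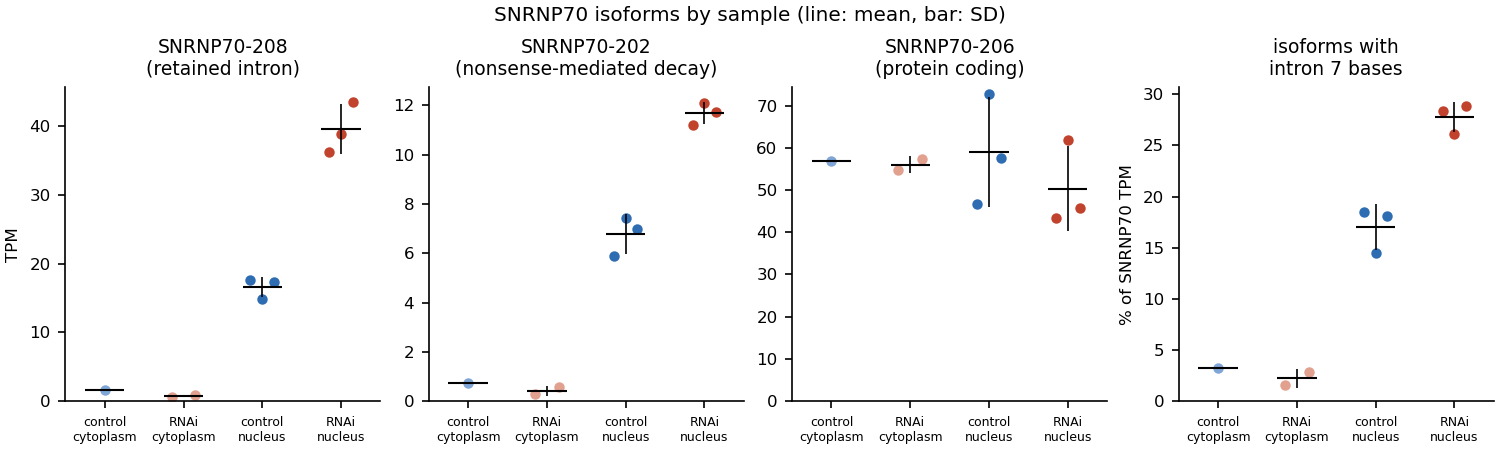
TPM in each library of 3 SNRNP70 isoforms, and the share (%) of the gene's TPM held by the 5 isoforms with bases of intron 7, with a line at the group mean and a bar for the SD. SNRNP70-208 reads 14.9 to 17.6 TPM in control nuclei and 36.3 to 43.5 TPM in RNAi nuclei, SNRNP70-202 stands apart in the same way, and the groups of the coding isoform SNRNP70-206 overlap.

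A second list of 65 spliceosome genes outside the 48, of which 64 were tested, was placed in the same way. It had 22 genes lower and 10 higher in the nucleus (background 23.4% and 33.1%), with a median of -0.36 on the log2 scale. Its ratio was raised for 14 and lowered for 2 (background 10.4% and 7.87%), and after RNAi in the nucleus 1 was higher and 1 lower (background 2.47% and 2.42%). The members of the 2 lists share their libraries and several of their complexes, so the second is not a replicate of the first.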

How the data were processed

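The authors sequenced Lexogen SENSE mRNA libraries of nuclear and cytoplasmic fractions, trimmed reads with cutadapt, merged lanes and ran salmon against Ensembl transcripts of hg19, with no pooling of replicates. The version of salmon is not given in the sources used here. Per sample they deposited estimated counts per transcript, not normalized between samples, together with TPM, which salmon divides by effective length, and the transcript lengths and effective lengths in nucleotides (the latter used for the length offset). Of 215170 transcripts, 183122 (85.1%) were matched to genes of GENCODE 44 lifted to GRCh37 (hg19), an annotation later than the one the authors used, which also gave transcript types.

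For each gene the estimated counts of its transcripts were added and the sum rounded to a whole number. The 16181 genes with at least 10 counts in at least 3 samples were fitted with edgeR 4.0.16 in R 4.3.3 (quasi-likelihood test, TMM, 4 groups, all 9 samples, 5 residual degrees of freedom), so the single control cytoplasmic sample is assumed to vary like the other groups. Isoforms with TPM of at least 1 in at least 3 samples (41485) and retained-intron ratios (7184 genes, mean TPM of at least 1) were fitted with limma 3.58.1 on the log2 scale, with pseudocounts of 1 and 0.5, which understate changes of low values. Thresholds and the ratio contrast follow the study. The study reported fewer genes changed in either direction than the edgeR fit here called, and the reason was not tested. Replicates differed by more than sampling noise (chi-square per degree of freedom 5.65 to 66). The code was tested on simulated data.

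The 48 genes and the lists were chosen with earlier results of these data known. Given in every sample were, within each role, the 2 largest and the smallest ratio change, then, over all 48, the 2 most nuclear genes, the most cytoplasmic one and all those called in the nucleus after RNAi, plus the 8 isoforms with the smallest adjusted p and the main coding isoform of each. Other called genes are named with fewer values. Alternatives were DESeq2 1.42.0, its size factors, library size only, no filter, a length offset, a replicate block, other pseudocounts and each sample left out. A correction for GC content and a fraction contrast of RNAi samples only were added after the data were seen.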

Additional observations from a re-analysis of the deposited data

Results flagged for a closer look

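For 15 of the 48 spliceosome genes unequal effects of RNAi in nucleus and cytoplasm were called by the test of the difference itself (the change of the nuclear/cytoplasmic ratio in edgeR). The ratio was raised for 11 and lowered for 4, beside 10.4% and 7.87% of all genes. The calls of LUC7L, SNRPA1, SNRNP27, DHX15, SF3B2, DHX8, SNRPA and SF3A2 each ended without any of several single libraries, as given above. The log2 changes of the ratio were 2.12 for LUC7L3, 2.0 for RBM25, 1.78 for CDC5L, 1.71 for CWC27, 1.35 for PRPF39, 1.23 for PRPF38B, 0.864 for LUC7L, 0.812 for SF3B1, 0.755 for SNRPA1, 0.694 for SNRNP27 and 0.502 for DHX15. They were -0.517 for SF3B2, -0.534 for DHX8, -0.542 for SNRPA and -0.608 for SF3A2. All 15 rest on the same single control cytoplasmic library.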

How the results depend on the processing

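The main limits are the single control cytoplasmic library, on which every comparison with the cytoplasm except that within RNAi samples rests, scaling to library size between fractions of different composition, and retained-intron transcripts defined by annotation. Of the values of named genes and isoforms under the alternatives, 1124 kept their direction and side of the threshold, 186 kept the direction but no longer passed, and 3 reversed. These were SNRNP27 for the ratio with the GC correction (log2 change -0.26, adjusted p = 0.602), PLRG1 between fractions with the length offset (0.63, adjusted p = 0.0241) and SF3B6 in the cytoplasm with the GC correction (0.24, adjusted p = 0.548). The causes were not tested.

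Scaling by library size only, which moved the median change of the ratio over all genes from -0.05 to 0.23 and the median cytoplasmic difference from 0.01 to -0.24, gave 12 genes lower in the nucleus, 0 with a lowered ratio, 0 lower after RNAi in the nucleus and 0 higher in the cytoplasm. Over all 16181 genes these counts were 2827, 164, 158 and 431. The length offset gave 6 raised ratios and 1 gene lower in the nucleus after RNAi (all genes: 1068 and 214). The GC correction gave 5 raised and 0 lowered ratios (all genes: 682 and 499), and 1 higher and 5 lower in the cytoplasm (all genes: 838 and 907). Without the filter on low counts there were 2 lowered ratios, 4 genes lower in the nucleus after RNAi and 3 higher in the cytoplasm (all 34607 genes: 1282, 673 and 1565). DESeq2 gave 9 raised and 4 lowered ratios (all 13669 genes: 1281 and 1138). In the main fit 1680 of all 16181 genes were raised and 1273 lowered. The counts over all genes also moved in the fits with 1 library left out.

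With 1 library left out, the number raised ran from 7 to 13 and the number lowered from 0 to 3. After RNAi it ran from 0 to 1 higher and 0 to 4 lower in the nucleus, and from 3 to 6 higher and 13 to 19 lower in the cytoplasm. Between fractions it was 7 higher throughout and 15 to 20 lower, with 16 to 19 retained-intron ratios higher and 1 to 2 lower (2 without control nuclear replicate 3), 63 to 81 isoforms higher and 17 to 32 lower. Isoforms higher after RNAi in the nucleus ran from 0 to 1. The calls of the retained-intron ratio that ended were DHX8 without RNAi cytoplasmic replicate 1 (adjusted p = 0.109) and SF3B6 without any of 5 libraries (0.105 to 0.178). In the cytoplasm they were LUC7L without RNAi cytoplasmic replicate 1 or RNAi nuclear replicate 1 or 3, PRPF38A and SNRPD1 without RNAi cytoplasmic replicate 1, and SF3B6, SNRPA1 and SNRPB2 without RNAi cytoplasmic replicate 2.

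Same-numbered control and RNAi nuclear libraries deviated together with correlations of 0.185, 0.11 and 0.042, and differently numbered ones with correlations of -0.172 to 0.056. Each control nuclear library correlated best with its own number. RNAi nuclear replicate 3 correlated more with control nuclear replicate 2 (0.056) than with replicate 3 (0.042). Between fractions, RNAi cytoplasmic replicate 1 had a correlation of 0.1 with RNAi nuclear replicate 1 and of -0.037 with RNAi nuclear replicate 2. These small values lean towards a pairing by number but do not establish it, so the main fits used no block. The main fraction and ratio contrasts thus treated nuclear and cytoplasmic libraries of the same number as independent, although they may come from 1 culture. With a replicate block 8 genes were higher in the cytoplasm, 3 retained-intron ratios were lower in the nucleus and 0 isoforms were higher after RNAi in the nucleus, where SNRNP70-208 had an adjusted p of 0.218. The block gave 10 raised and 6 lowered ratios (all genes: 2121 and 1917). Over all genes 2066 were higher in the cytoplasm with the block, and 414 of 7184 retained-intron ratios were lower in the nucleus.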
